A study of Mus musculus with 6 samples.

Results

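The collagen genes of the embryonic mouse heart were compared between hearts that had lost Dicer and control hearts. Members were chosen by name, as every probe whose single platform gene symbol reads Col, a number, the letter a and a number. This rule was set with earlier results of these data known. The rule gave 40 genes on 52 probes, of which 37 genes were measured among 15012 genes tested. Hearts were taken at embryonic day 11.5, and total RNA of each was labelled with biotin and hybridised to a single-colour CodeLink array. The mutant group held 3 arrays of hearts whose Dicer gene was deleted through the Nkx2.5 Cre knock-in, a Cre driver of the cardiac lineage. The control group held 3 arrays of control hearts, and the sources used here do not state their genotype. Cells of the dissected heart outside the lineage of this driver keep Dicer. The labels do not tie an array to 1 embryo or to a pool, and p-values therefore cover the spread among these samples alone, part of which may be technical.

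Collagens are secreted or membrane proteins whose chains wind into a triple helix, built from short repeats that begin with glycine. Fibrillar collagens assemble into the banded fibrils that carry tension, type IV collagens form the sheet of the basement membrane under endocardium, epicardium and around muscle cells, and the remaining types coat fibrils, anchor membranes or span the plasma membrane. In the heart at this stage collagen is laid down mainly by the mesenchyme of the endocardial cushions, which will form valves and septa, and by the epicardium. Dicer cuts miRNA precursors into mature miRNAs, among them the miR-29 family, for which several fibrillar and type IV collagen transcripts are known targets.

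The mature miR-29 sequences are shown because the collagen genes known as their targets form one of the groups described here. The miRNAs themselves were not measured on these arrays. Capitals mark the seed, bases 2 to 8 from the 5′ end, which is the same in all 3 miRNAs (RefSeq, build GRCm38.p6).
mmu-miR-29a-3p: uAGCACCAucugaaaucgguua
mmu-miR-29b-3p: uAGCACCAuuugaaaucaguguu
mmu-miR-29c-3p: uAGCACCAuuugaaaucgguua

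The 150 bases before the first base of the RefSeq gene model are shown for Col11a1 and Col24a1, fibrillar genes whose mutant arrays all lay below the control arrays. They are given 5′ to 3′ on the plus strand of GRCm38.p6, for Col11a1 at chr3:114030329-114030478 and for Col24a1 at chr3:145292322-145292471. For Col27a1, the other such fibrillar gene, the RefSeq promoter window lies inside the gene model, and none is shown. Capitals mark a GC box (GGGCGG) or a CCAAT box (CCAAT), each searched on both strands, so that ATTGG is a CCAAT box on the minus strand.
Col11a1: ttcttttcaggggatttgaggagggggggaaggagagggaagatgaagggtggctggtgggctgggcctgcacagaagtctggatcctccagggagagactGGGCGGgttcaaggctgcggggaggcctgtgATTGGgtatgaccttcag
Col24a1: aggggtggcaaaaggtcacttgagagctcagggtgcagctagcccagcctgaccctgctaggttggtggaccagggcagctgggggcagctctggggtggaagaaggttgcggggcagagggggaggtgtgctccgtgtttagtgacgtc

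Over the windows from 250 bases before to 50 bases after each transcript start that the RefSeq promoter table uses, the GC box lay in 35.7% of all 32851 windows and the CCAAT box in 37.4%. Of the 30 measured collagen genes with a window, 19 held a GC box and 12 a CCAAT box in at least 1 of their windows. Of the 6 fibrillar genes with a window, 5 held a GC box and 3 a CCAAT box. The TATA box (TATAAA, both strands) lay in 13.6% of all windows, in 3 of the 30 collagen genes and in 0 of the 6 fibrillar ones. The shares over all windows are per window and the collagen counts per gene, so no enrichment can be read from them. A match describes these letters only and is no evidence of a bound factor.

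Between 74.1% and 78.2% of the 36227 spots on an array were above background by the scanner's flag. Dicer1 checks the labels, and its log2 level was 6.74, 6.73 and 6.68 in mutants 1, 2 and 3 and 7.82, 7.63 and 7.71 in the controls. The mutant to control ratio was 0.498, with a 95% interval from 0.429 to 0.579 (limma adjusted p = 0.036), and whether its probe lies inside the deleted exons is unknown. Of 12 measured cardiomyocyte markers, 11 were above background on all 6 arrays, and so were 4 of 5 foregut and 3 of 4 measured liver markers. The linear signals of the liver markers summed to 2093, 1922 and 1967 in mutants 1, 2 and 3 and to 2845, 2798 and 1749 in the controls. Those of the foregut markers summed to 941, 915 and 882 in the mutants and to 1112, 1071 and 889 in the controls. The difference lay below 0 in 2 of the 4 liver and 2 of the 5 foregut markers. The part of these other tissues in the collagen values was not tested. The count of passing probes depended on mutant 3 and control 3, which share a number in their titles. With all 6 arrays 9 probes passed, 5 higher and 4 lower, but 3921 without those 2 arrays. Without control 3 alone 320 passed, and without mutant 3 alone 1 did. With the authors' normalized intensity 4 probes passed, 1 higher and 3 lower.

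No collagen gene passed the test. With limma, at an adjusted p under 0.05 over all probes, 0 of the 37 measured genes passed, against 0.0508% of all probes tested, and the smallest adjusted p was 0.264. At an unadjusted p under 0.05 there were 8 collagen genes (21.6%), against 10.2% of all genes tested. The mutant arrays all lay below the control arrays in 6 collagen genes (16.2%), against 5.48% of all genes, and all above them in 1 (2.7%), against 9.71%. A log2 difference below 0, mutant minus control, was found in 27 of 37 collagen genes (73.0%), against 47.6% of all genes. Without mutant 1, the lowest array in 16 of the 37, the count was 22 of 37. It ran from 25 to 27 without another single array. Without both arrays of replicate 1, 2 or 3 it was 21, 29 or 28. The median difference was -0.09 over the collagens and 0.01 over all genes tested. In bulk tissue, fewer cells of a type and less RNA per cell cannot be told apart. Without mutant 3 and control 3 together, 7 collagen genes passed, 2 higher and 5 lower, which is 18.9% of the 37. In that fit 22.1% of all probes passed, and the share over all genes was not computed. The collagen share, counted per gene, was no larger than this share per probe. The genes named below as passing there are no result about collagens. With the start of the array titles, read as a slide, as a block, 1 collagen gene passed (2.7%), against 7.56% of all probes.

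**Figure D1:**
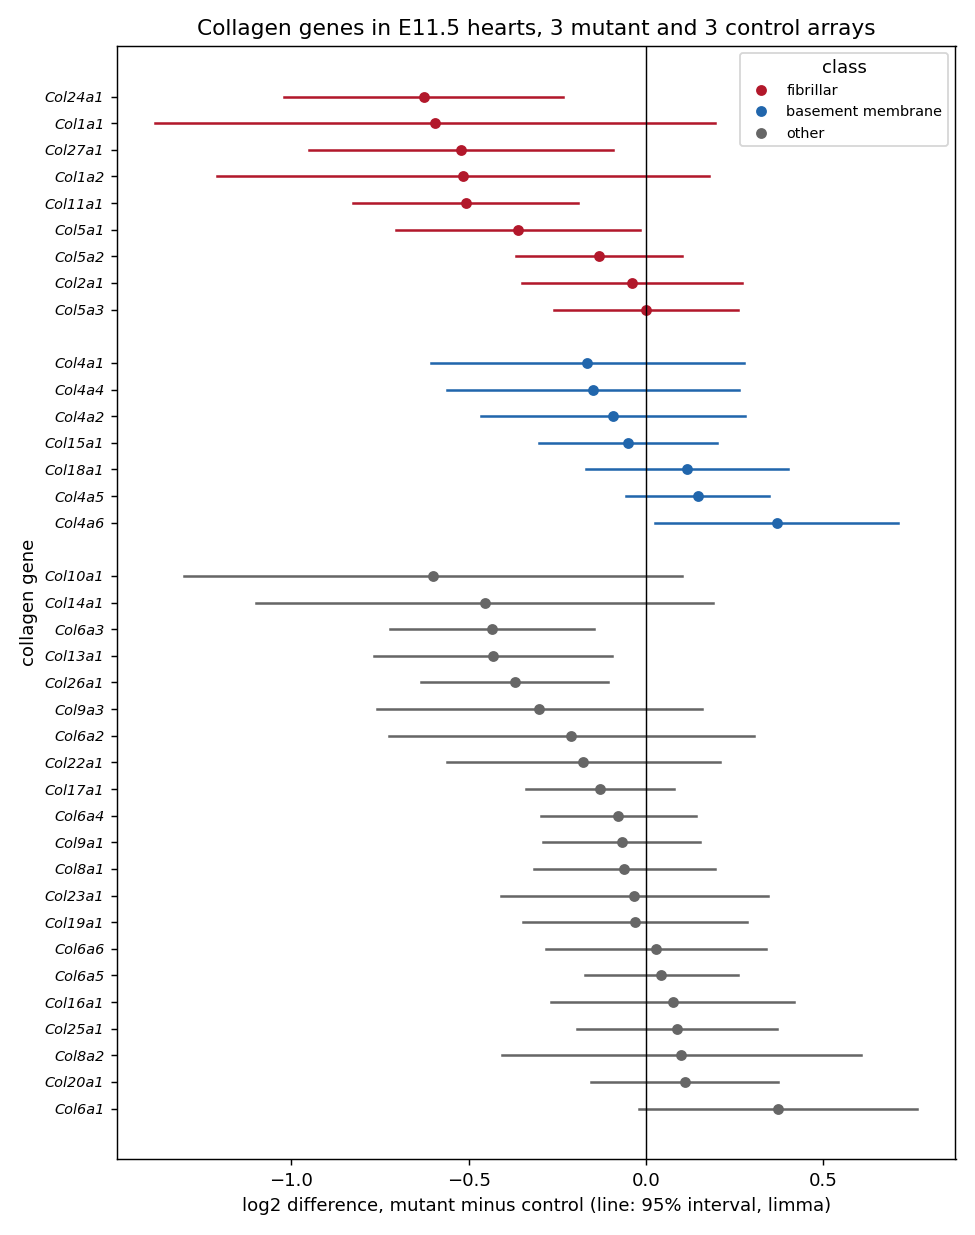
Log2 differences of the 37 measured collagen genes (x axis, mutant minus control, 3 arrays each) by class, with 95% intervals from limma. The 9 fibrillar genes run from -0.63 to -0.00, while basement membrane genes run from -0.17 to 0.37 and the others from -0.60 to 0.37; no gene passed after adjustment.

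The 3 genes not measured had probes near background: Col4a3, a type IV chain of restricted tissues, was flagged near background on all 6 arrays, Col11a2, a type XI chain, on all but 1, and Col7a1, the anchoring fibril collagen of skin, on all but 2. Of the 37 measured genes, 35 were above background on all 6 arrays. Col24a1 and Col8a1 were near background on 1 array, mutant 3. Each measured gene was above background on at least 2 arrays of each group, so none entered through 1 group alone. For 28 genes a single probe was listed. Among the 8 genes with a second tested probe, the dimmer probe had the opposite sign of difference in 6.

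The fibrillar class had 9 measured genes, and the difference lay below 0 in all 9. It was 8 of 9 with the subtracted intensity, with a smaller normexp offset or with array medians set equal, where Col5a3 crossed 0, and also without control 1 or without control 2, and 7 of 9 without mutant 1. The median difference was -0.51, against 0.01 over all genes. Among the 9 genes the array with the lowest level was mutant 1 in 4, mutant 3 in 4 and control 3 in 1. The median of the class, taken relative to each gene's mean over the arrays, was -0.20 in mutant 1, 0.03 in mutant 2 and -0.50 in mutant 3, and 0.06, 0.16 and 0.32 in controls 1, 2 and 3. All control medians were above all mutant medians, with mutant 2 closest to the controls. Without mutant 3 the class median was -0.31, without control 3 it was -0.32, and without both -0.21. Col3a1, the other main fibril chain of soft tissue, was not analysed here.

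Col24a1 and Col27a1 encode the fibrillar chains with shortened or interrupted helices, and Col11a1 the type XI chain that sits in the core of fibrils and helps set their diameter. The log2 level of Col11a1 was 8.92, 8.94 and 8.55 in mutants 1, 2 and 3 and stood at 9.41, 9.21 and 9.30 in the controls. The groups did not overlap, with mutant 3 the lowest. The ratio of mutant to control was 0.703, with a 95% interval from 0.565 to 0.876, a log2 difference of -0.51 ± 0.13 (SE) that did not pass (limma adjusted p = 0.264). Without mutant 3 and control 3 the difference was -0.39 and passed (limma adjusted p = 0.0458).

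Col24a1 had levels of 6.59, 6.67 and 6.24 in the mutants and of 6.91, 7.10 and 7.36 in the controls. All mutants lay below all controls, and mutant 3, the array flagged near background, was the lowest. Its difference of -0.63 ± 0.16 (SE) was the most negative of the collagens and did not pass (limma adjusted p = 0.267). This probe is dim, and without an offset, in the authors' normalized intensity, the difference was -1.29. It was -0.38 without mutant 3 and control 3, where it passed (limma adjusted p = 0.0485).

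Col27a1 had levels of 9.85, 10.002 and 9.46 in the mutants and of 10.04, 10.35 and 10.48 in the controls. The groups did not overlap, but mutant 2 at 10.002 and control 1 at 10.04 were close. The difference was -0.52 ± 0.18 (SE, limma adjusted p = 0.396). The gene's dimmer probe gave 0.03, and the mean of both probes -0.25.

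The chains of type I collagen, the main fibril of connective tissue, varied widely from array to array. Col1a1 was at 7.91, 8.80 and 8.03 in the mutants and at 8.35, 8.78 and 9.40 in the controls. Mutant 2 lay above 2 of the controls, so the groups overlapped, and the difference of -0.60 ± 0.33 (SE) did not pass (limma adjusted p = 0.58). Col1a2 was at 8.83, 9.63 and 8.41 in the mutants and at 9.47, 9.41 and 9.53 in the controls. Here the controls lay close together, while mutant 2 lay above all of them and mutants 1 and 3 below. Its difference was -0.52 ± 0.29 (SE, limma adjusted p = 0.584). Both chains were low in mutants 1 and 3 and not in mutant 2. Without mutant 3 and control 3 each gave -0.21, and with the title start as a block Col1a1 gave 0.01.

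Type V collagen starts the fibrils of type I. Col5a1 was at 9.77, 10.19 and 9.82 in the mutants and at 10.17, 10.25 and 10.44 in the controls. Mutant 2 lay just above control 1, and the difference was -0.36 ± 0.14 (SE, limma adjusted p = 0.477), with 0.16 for the dimmer probe. Col5a2 was at 11.36, 11.58 and 11.51 in the mutants and at 11.59, 11.69 and 11.57 in the controls, a difference of -0.13 ± 0.10 (SE) with mutant 2 just above control 3. Col5a3 differed by -0.00 (95% interval -0.26 to 0.26). Col2a1, the chain of cartilage fibrils that is also made in cushion tissue, was at 7.0, 7.12 and 7.41 in the mutants and at 7.12, 7.28 and 7.24 in the controls. It gave -0.04 ± 0.13 (SE), with the groups interleaved.

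**Figure D2:**
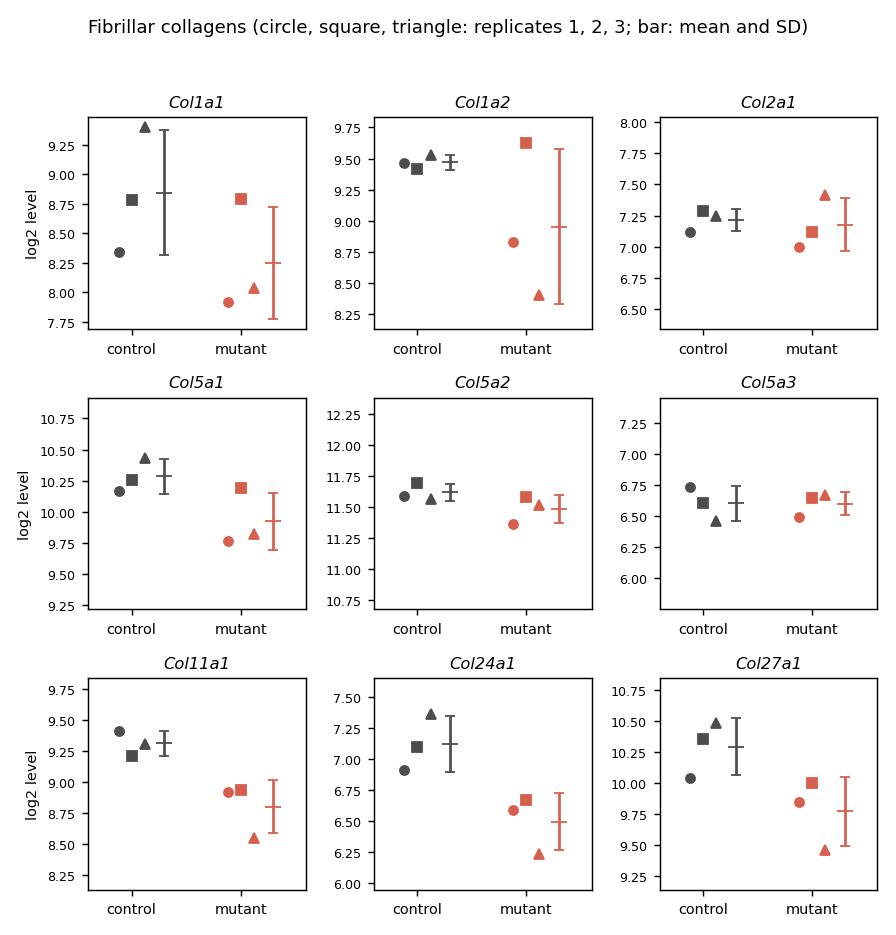
Log2 levels (y axis) of the 9 measured fibrillar collagen genes in control and mutant hearts; each symbol is 1 array and the bar shows the mean and SD of 3. In Col11a1, Col24a1 and Col27a1 all mutant arrays lie below all control arrays, while in Col1a1 and Col1a2 mutant 2 (square) lies among or above the controls.

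Markers of the tissues that make fibrillar collagen were read beside these values. Of 12 measured markers of cushion mesenchyme and fibroblasts 0 passed, 7 lay below 0 and their median difference was -0.23. Their summed linear signal ran from 13367 to 15249 in the mutants and from 13076 to 13712 in the controls, so the groups overlapped, and no marker of this list was missing or near background on most arrays. Of 9 cartilage markers 7 were measured, 4 lay below 0 and 0 passed, with Matn1 and Matn4 near background. Their summed signal ran from 835 to 1083 in the mutants and from 951 to 1026 in the controls. Cnmd, the cartilage gene chondromodulin, which is also known from heart valves, gave -0.75 ± 0.12 (SE, limma adjusted p = 0.138), with all mutants below all controls; its probe was near background on 1 array. Of 9 epicardial markers 8 were measured and 6 lay below 0, with a summed signal of 5922 to 8269 in the mutants and 6266 to 12442 in the controls and Msln near background. Of 10 endothelial and endocardial markers 8 were measured, 7 below 0, with a summed signal of 6927 to 8029 in the mutants and 7988 to 8571 in the controls and Cdh5 and Flt1 near background. In 4 of these 8, against 5.48% of all genes, all mutants lay below all controls, namely Cd34 at -0.35, Esam at -0.28, Tie1 at -0.14 and Kdr at -0.13, and 0 passed. Of 13 cardiomyocyte markers 12 were measured, 6 below 0, with a summed signal of 172623 to 199451 in the mutants and 151019 to 215022 in the controls. The groups did not overlap in Myl3, a myosin light chain, at -0.78 (limma adjusted p = 0.0836), in Ryr2 at -0.11 and, of the cushion markers, in the matrix proteoglycan Vcan at 0.61 (limma adjusted p = 0.186). Vcan, whose dimmer probe gave 0.08, was the brightest cushion marker and weighs most in their summed signal. It went against the 7 of 12 cushion markers below 0, among them Msx2 at -1.04 and Msx1 at -0.52, whose groups overlapped. Of 8 erythroid markers 7 were measured, 6 below 0, with a summed signal of 72898 to 78232 in the mutants and 72796 to 85647 in the controls. The globins Hbb-bh1 and Hba-x made up most of this sum, and Hbb-bh1 stood at 15.225 in all mutants and in control 1. Dimmer erythroid markers hardly enter it, such as Gata1 at -0.68, Alas2 at -0.74 and Epb42 at -0.73, while Hbb-bh1 gave 0.08. The cardiomyocyte sum likewise follows its brightest markers. Between 184 and 263 spots per array were flagged saturated, and their part in these sums was not tested. The part of these cell types in the collagen values was not tested.

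Of the basement membrane class 7 genes were measured, 4 below 0 and 3 above, with a median difference of -0.05. The median turned to 0.06 without mutant 1, the array with the lowest level in 4 of the 7 genes. Col4a1 and Col4a2 encode the chains found in nearly all basement membranes and lie head to head. Col4a1 was at 10.26, 10.31 and 10.85 in the mutants and at 10.45, 10.67 and 10.80 in the controls. Mutant 3 was the highest array, and the difference was -0.17 ± 0.18 (SE). Col4a2 was at 9.06, 9.47 and 9.59 in the mutants and at 9.59, 9.41 and 9.39 in the controls. Mutant 1 was low and the other 5 arrays lay together, with a difference of -0.09 ± 0.16 (SE). Neither gene passed, with limma adjusted p of 0.779 and 0.858.

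Col4a5 and Col4a6 form a second head-to-head pair, on the X chromosome, and make the type IV network around smooth muscle and in some other membranes. Col4a5 was at 7.43, 7.42 and 7.47 in the mutants and at 7.30, 7.23 and 7.35 in the controls. It was the collagen whose mutants all lay above the controls, by a small difference of 0.15 ± 0.08 (SE, limma adjusted p = 0.59). Col4a6 was at 8.66, 8.99 and 8.78 in the mutants and at 8.34, 8.30 and 8.68 in the controls. Only control 3 reached into the mutant range, and the difference of 0.37 ± 0.14 (SE) was 1.29-fold (95% interval 1.02 to 1.64, limma adjusted p = 0.465). Without mutant 3 and control 3 it was 0.50 and passed (limma adjusted p = 0.0346). Col4a4, a chain known from kidney and inner ear, gave -0.15, and its dimmer probe 0.04.

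Types XV and XVIII are proteoglycan collagens that border basement membranes, and the end of the type XVIII chain is released as endostatin. Col18a1 was at 10.997, 11.01 and 10.97 in the mutants, a range narrower than the 10.81, 10.72 and 11.10 of the controls. Control 3 lay above all mutants, and the difference was 0.12 ± 0.12 (SE, limma adjusted p = 0.762). Col15a1 was at 6.29, 6.55 and 6.56 in the mutants and at 6.52, 6.49 and 6.54 in the controls. Mutant 1 was low, and the difference was -0.05 ± 0.10 (SE, limma adjusted p = 0.889).

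Type VI collagen forms beaded filaments around cells from the chains of Col6a1, Col6a2 and a longer partner, usually that of Col6a3. Col6a1 was at 8.83, 9.15 and 8.86 in the mutants and at 8.37, 8.48 and 8.88 in the controls. Control 3 lay within the mutant range, and the difference was 0.37 ± 0.16 (SE, limma adjusted p = 0.52). It was 0.57 without mutant 3 and control 3 and passed there (limma adjusted p = 0.0259). Col6a3 was at 8.45, 8.39 and 8.32 in the mutants and at 8.87, 8.61 and 8.99 in the controls. Its groups did not overlap, and the ratio of mutant to control was 0.74, with a 95% interval from 0.606 to 0.903. That log2 difference of -0.43 ± 0.12 (SE) did not pass (limma adjusted p = 0.293). Col6a2 was at 11.53, 11.90 and 11.92 in the mutants and at 11.60, 12.002 and 12.38 in the controls. The groups overlapped, with a difference of -0.21 ± 0.21 (SE). The alternative partners Col6a4, Col6a5 and Col6a6 gave -0.08, 0.04 and 0.03.

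The chains of 1 trimer or gene pair were set against each other within each array, in 12 pairs of measured genes. In 3 pairs the log ratio of the chains did not overlap between the groups, and the share over other gene pairs was not computed. For Col6a1 over Col6a3 the log ratio was higher in the mutants by 0.81, with an SD of 0.19 over the mutants and 0.22 over the controls (n = 3 each), and for Col6a1 over Col6a2 it was higher by 0.58. Both type VI ratios use Col6a1 and are not separate observations. For Col11a1 over Col2a1 the mutants differed from the controls by -0.47. Each of these had an exact permutation p of 0.1 (two-sided), the smallest that 3 against 3 arrays allow, and 0.4 after Benjamini-Hochberg adjustment over the 12 pairs (exact permutation). For Col1a1 over Col1a2 the groups differed by -0.08 (exact permutation p = 0.9), for Col4a1 over Col4a2 by -0.07 (exact permutation p = 0.6) and for Col4a5 over Col4a6 by -0.22 (exact permutation p = 0.3). A ratio of this kind shows unequal change and not which chain changed.

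**Figure D3:**
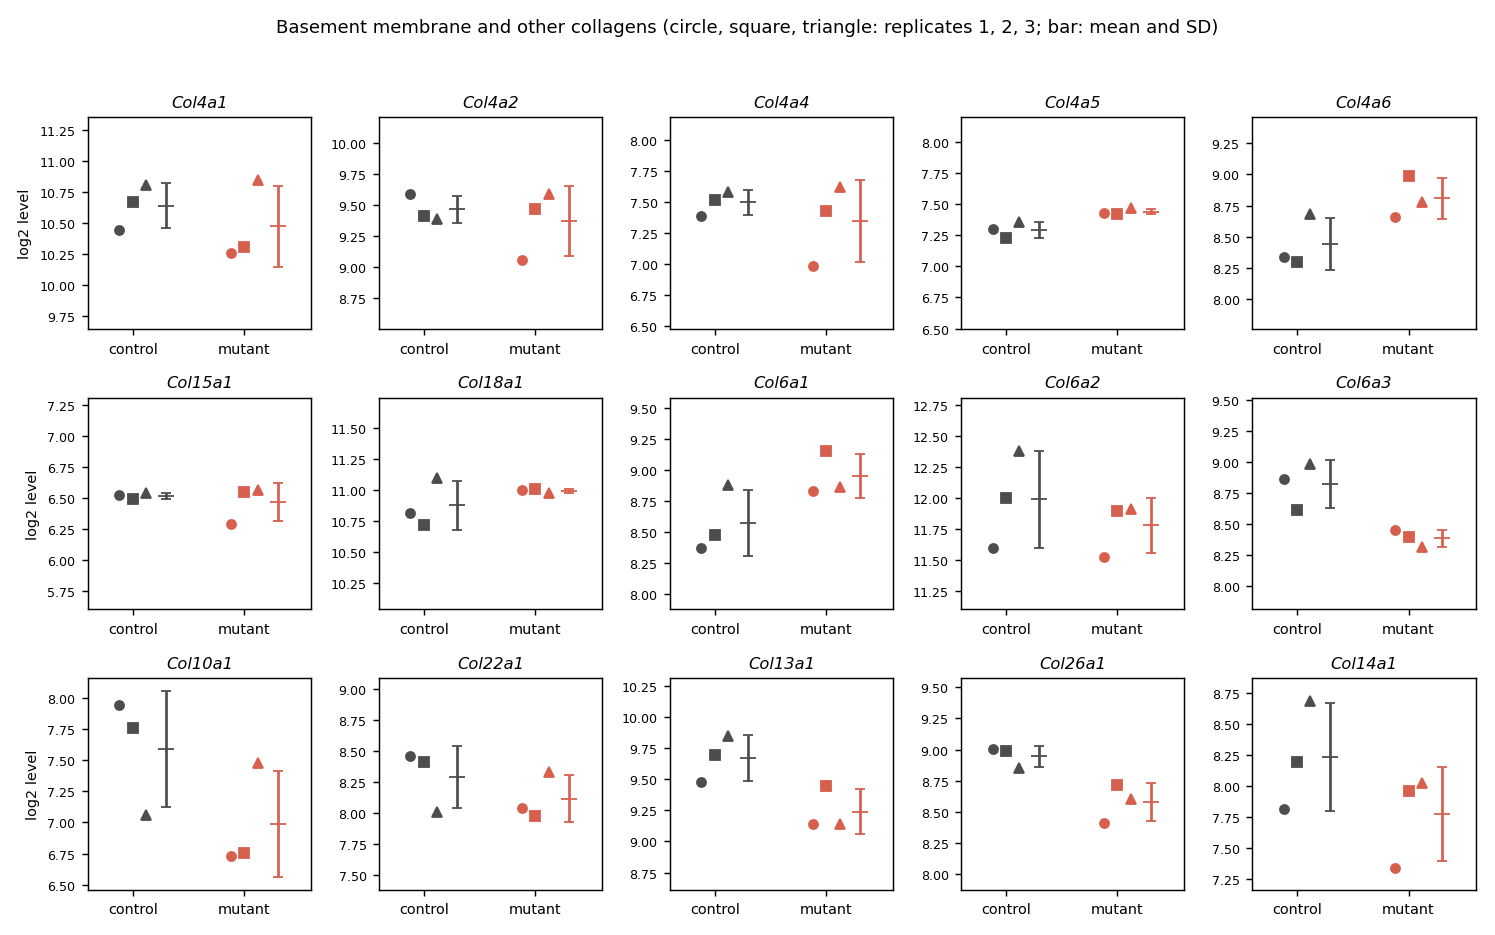
Log2 levels (y axis) of 15 collagen genes of the basement membrane and other classes in control and mutant hearts; each symbol is 1 array and the bar shows the mean and SD of 3. Col6a1 lies mostly higher and Col6a3 lower in the mutants, and in Col10a1 replicates 1 and 2 lie apart from replicate 3 (triangle) in opposite directions in the groups.

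Among the other collagens, 21 genes were measured, 14 below 0 and 7 above, with a median difference of -0.07. All mutants lay below all controls in 3 of them (14.3%), against 5.48% of all genes, namely Col6a3, Col13a1 and Col26a1. All mutants lay above all controls in 0, against 9.71% of all genes. Col13a1, a transmembrane collagen of adhesion sites and the neuromuscular junction, was at 9.14, 9.45 and 9.14 in the mutants and at 9.47, 9.69 and 9.85 in the controls. Mutant 2 at 9.45 and control 1 at 9.47 nearly met. The difference was -0.43 ± 0.14 (SE, limma adjusted p = 0.37). Col26a1, a short collagen first described in the gonads, was at 8.41, 8.71 and 8.61 in the mutants and at 9.002, 8.99 and 8.85 in the controls. Its difference of -0.37 ± 0.11 (SE, limma adjusted p = 0.332) was -0.43 without mutant 3 and control 3 and passed there (limma adjusted p = 0.0483).

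Col10a1 and Col22a1, singled out after their values were seen, behaved differently in the third replicates. Col10a1, the short chain collagen of hypertrophic cartilage, was at 6.73, 6.75 and 7.48 in mutants 1, 2 and 3 and at 7.94, 7.76 and 7.06 in the controls. Mutants 1 and 2 were the lowest arrays and controls 1 and 2 the highest, while mutant 3 lay above control 3. The difference of -0.60 ± 0.29 (SE) did not pass (limma adjusted p = 0.553). Without mutant 3 and control 3 it was -1.11 (limma adjusted p = 0.0012). Col22a1, which marks junctions such as that of muscle and tendon, was at 8.04, 7.97 and 8.33 in the mutants and at 8.46, 8.41 and 8.01 in the controls. The same arrays stood apart, and the difference moved from -0.18 (limma adjusted p = 0.726) to -0.43 without mutant 3 and control 3, where it passed (limma adjusted p = 0.0237).

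The fibril-associated collagens decorate the surface of fibrils, and 5 of their 7 measured genes lay below 0, with 0 passing. Col14a1 gave -0.46 ± 0.27 (SE), with mutants at 7.34, 7.96 and 8.02 and controls at 7.82, 8.19 and 8.68, and its dimmer probe gave -0.22. Of the type IX chains, which are bound to type II fibrils, Col9a3 gave -0.30 and Col9a1 -0.07. Col9a3 was at 9.75, 9.65 and 9.04 in the mutants and at 9.71, 9.80 and 9.84 in the controls, with mutant 3 well below the other 5 arrays. Col16a1, Col19a1 and Col20a1 gave 0.08, -0.03 and 0.11. The short chain genes Col8a1 and Col8a2 gave -0.06 and 0.10. Of the remaining transmembrane genes, Col17a1, the hemidesmosome collagen, gave -0.13, Col23a1 gave -0.03 and Col25a1 0.09. None of these passed, with limma adjusted p of 0.595 or more.

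**Figure D4:**
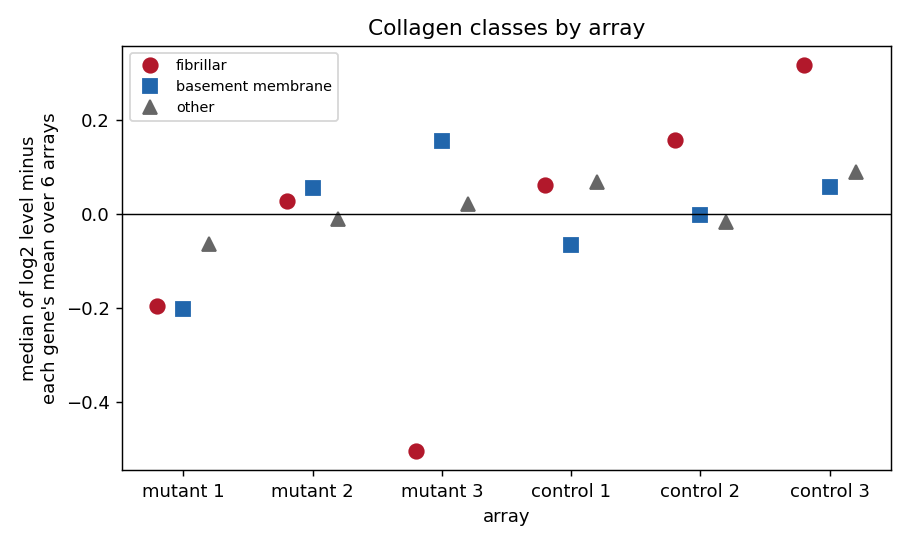
Median log2 level of each collagen class on each array, relative to each gene's mean over the 6 arrays (y axis). Fibrillar medians run from -0.50 in mutant 3 to 0.32 in control 3, a wider range than those of the basement membrane class (-0.20 to 0.15) and the other collagens (-0.06 to 0.09).

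The collagen genes known from general knowledge as miR-29 targets were read as a group, of which 8 of 9 were measured. The difference lay below 0 in 8 of 8, but in 5 of 8 without mutant 1, the lowest array of this group, where Col4a2, Col5a3 and Col15a1 were above 0 and the median was -0.07. It lay below 0 in 7 of 8 with the subtracted intensity, the smaller offset or equal array medians and without control 1 or control 2, where Col5a3 was above 0. With all arrays their median was -0.15, against 0.01 over all genes tested, and 0 passed. The median was -0.09 over all collagens, 27 of 37 of them below 0, and -0.51 over the fibrillar class. Col1a1, Col1a2, Col5a1, Col5a2 and Col5a3 belong to both groups, so the direction is not particular to these targets. The values were -0.60 for Col1a1, -0.52 for Col1a2, -0.36 for Col5a1, -0.17 for Col4a1, -0.13 for Col5a2, -0.09 for Col4a2, -0.05 for Col15a1 and -0.00 for Col5a3. Their groups overlapped in each of the 8 genes.

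The enzymes that modify and secrete collagen chains, 12 of 18 measured, lay above 0 in 8 genes with a median of 0.16, and 0 passed. Colgalt1, which adds galactose to hydroxylysine, was at 10.56, 10.69 and 10.71 in the mutants and at 10.10, 10.25 and 10.15 in the controls. All mutants lay above all controls, with a difference of 0.49 ± 0.09 (SE, limma adjusted p = 0.166). Mia3, the TANGO1 receptor that loads procollagen into export carriers, gave 0.38 ± 0.10 (SE, limma adjusted p = 0.262), with 0.05 and 0.14 for its dimmer probes. In the opposite direction P3h3, a prolyl 3-hydroxylase family gene, gave -0.35 with groups that did not overlap. Of the propeptide proteinases and their enhancers, 4 of 9 were measured and 0 passed. Pcolce, the enhancer of procollagen C-proteinase, was at 12.11, 12.30 and 12.51 in the mutants and at 11.20, 11.45 and 11.60 in the controls. The groups were well apart, and the 1.86-fold difference of 0.89 ± 0.15 (SE) did not pass (limma adjusted p = 0.138). Tll1, a tolloid proteinase needed for heart septation, gave -0.93 ± 0.63 (SE), with levels of 10.91, 9.86 and 10.72 in the mutants and of 12.24, 12.08 and 9.94 in the controls. Control 3 was among the low arrays there.

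The crosslinking genes, 6 of 6 measured, had a median of -0.07 and 0 passed, with lysyl oxidase Lox at -0.25 and Loxl1 at -0.24. Of 11 genes of fibril partners 9 were measured, 7 lay below 0 and 0 passed, with a median of -0.26. Postn, periostin, a cushion matrix protein that binds type I collagen, was at 10.04, 10.02 and 10.09 in the mutants and at 10.48, 10.51 and 10.85 in the controls. The groups did not overlap, and the difference was -0.56 ± 0.12 (SE, limma adjusted p = 0.209). The proteoglycan lumican, Lum, gave -0.60 and also did not overlap, although mutant 2 at 8.95 was just below control 2 at 8.96. Decorin, Dcn, gave -0.35 and fibronectin, Fn1, 0.00.

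Of 10 collagen receptors 6 were measured, 4 above 0, with a median of 0.16 and 0 passing. Itga1, the integrin chain that binds type IV collagen, was at 9.55, 9.72 and 10.02 in the mutants and at 9.10, 9.07 and 9.10 in the controls. The difference of 0.67 ± 0.13 (SE) was 1.6-fold and did not pass (limma adjusted p = 0.177). The collagen receptor kinase Ddr1 gave 0.41 ± 0.11 (SE, limma adjusted p = 0.264), and its groups did not overlap either. Of 10 degradation genes 9 were measured, 6 lay below 0 and 0 passed. Mmp2, a gelatinase, gave -0.41 with groups that did not overlap, and the cathepsin Ctsk gave -0.22.

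**Figure D5:**
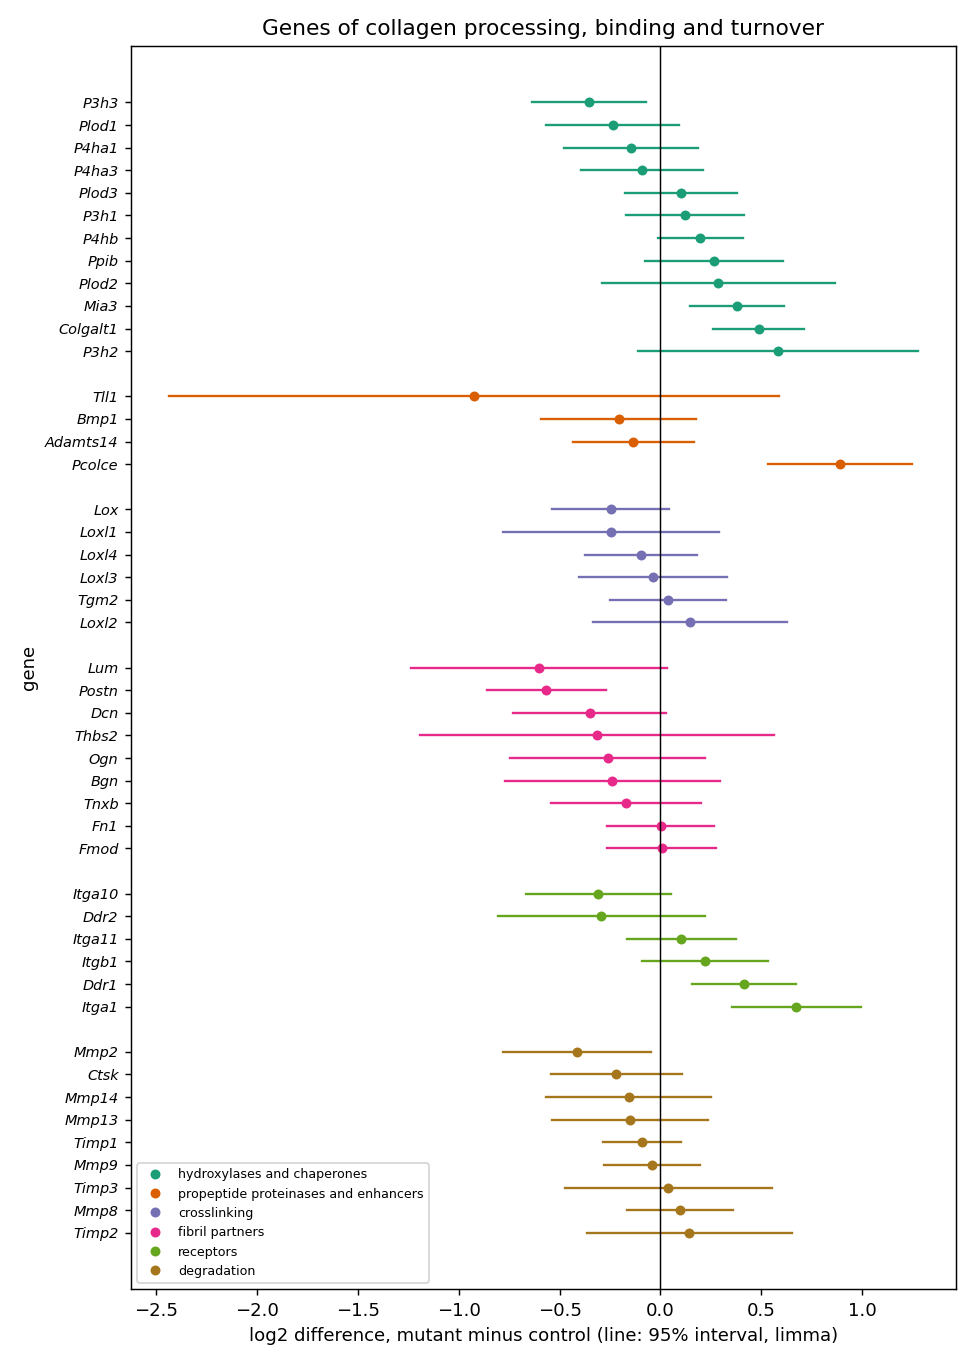
Log2 differences (x axis, mutant minus control, 3 arrays each) of the measured genes of collagen modification, processing, crosslinking, binding and turnover, with 95% intervals from limma. The intervals of Pcolce, Itga1, Colgalt1, Ddr1 and Mia3 lie above 0 and those of Postn, Mmp2 and P3h3 below 0. No gene passed after adjustment.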

How the data were processed

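Each deposited scanner file holds per-spot intensity, per the file headers: the spot mean, the local background median, a subtracted intensity and the authors' normalized intensity, which checked as the subtracted one divided by 1 constant per array. The assay followed the CodeLink protocol, per the labels. The sources used here name no scanner or image software. The deposited value table repeats the normalized intensities, with blanks.

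Spot means were corrected with normexp (offset 50), and their log2 values were quantile-normalized over the 21880 spots that the platform annotation lists (21676 with 1 gene, 204 with several, which were not named), in limma 3.58.1 under R 4.3.3. A probe entered when above background on at least 3 of 6 arrays (17727 probes, 15012 genes). The group difference came from lmFit and eBayes (two-sided) and was adjusted by Benjamini-Hochberg over all probes. The fit was also run on simulated data with independent noise on each array. That setting lacks the correlated deviations of the arrays used here, so it does not measure how the test performs on them. A gene is read from its brightest tested probe. The offset pulls differences of dim probes towards 0, and the number of arrays limits precision.

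The members, the lists and the naming rule were chosen with earlier results of these data known. Levels on every array are given for the main type I, II, IV, V, VI, XI, XV and XVIII genes and for collagen genes whose groups did not overlap. Outside the collagens they are given for some genes only. From each list of collagen pathway genes the passing ones, or otherwise the 2 with the smallest p, are named, and further genes, markers among them, were chosen after their values were seen. Symbols and sequences came from RefSeq. The fit was repeated with other background corrections, scalings, filters and blocks and without single arrays.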

Additional observations from a re-analysis of the deposited data

How the results depend on the processing

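The count of 0 collagen genes passing was the same in the alternatives run except 2: without both arrays that share the third title number, where 7 passed (18.9%, against 22.1% of all probes), and with the start of the titles as a block, which compares only mutants 1 and 2 with control 1, where 1 did (Col10a1, 2.7% against 7.56% of all probes). In the 701 values of single collagen genes under 19 alternatives, 8 gained a call, 44 changed sign without one and 20 of the 37 genes kept their sign throughout. The fibrillar median of -0.51 moved to -0.25 with the mean of a gene's probes, to -0.21 without the third title number and to -0.17 with the title start as a block, and ran from -0.57 to -0.31 with 1 array left out, the latter without mutant 3. The median of the other collagens, -0.07, moved to -0.14 with the authors' normalized intensity, -0.12 with the value table and -0.17 with the title start as a block, and ran from -0.11 without mutant 3 to -0.03 without control 1. The basement membrane median ran from -0.10 to 0.06 and that of all collagens from -0.15 to -0.06 with 1 array left out. Of all probes, 9 passed, and 5 with the subtracted intensity, 4 with the authors' normalized intensity, 5 with the value table, 1339 with the title start as a block, 3921 without the third title number and 0 without the first or second (limma, 969 and 424 at an unadjusted p under 0.05), and from 0 to 320 with 1 array left out: 320 without control 3, 1 without mutant 3 and 0 without mutant 1, mutant 2, control 1 or control 2 (limma, 1419, 1201, 1316 and 842 unadjusted). The cause of these moves was not tested. With the title number as a replicate block, 0 probes and 0 collagen genes passed (limma, 1322 probes at an unadjusted p under 0.05). The deviations of arrays that share a number had correlations of 0.01, -0.48 and -0.38, so the number was not taken to pair them, and what it marks is unknown. Dim probes such as Col24a1 depend most on the background correction, at -0.63 with normexp and -1.24 with the subtracted intensity.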
